A study of Homo sapiens with 6 samples.

Results

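The sarcomere is the contractile unit of striated muscle, and 10 of its genes were followed in A172, an established human glioblastoma cell line: MYBPC1, MYBPC2, MYBPC3, TNNT1, TNNI1, TNNC1, MYH3, ACTC1, ACTA1 and TTN. They were matched by Ensembl identifier to 10 of the 58051 genes in the count files. The list was chosen by the counts themselves: it was built around MYBPC2 because its RNA was known, from these libraries, to appear in RBFOX1 cells. The RBFOX1 against GFP values of the 10 genes are therefore a description, and no test is drawn from them. Stable A172 lines had received a lentiviral expression plasmid for RBFOX1, an RNA-binding protein of neurons and muscle, or for GFP as the control, with 3 biological replicates of each. All 6 libraries therefore come from cells with a lentiviral insert. Whether the replicates are separately transduced lines, and whether a line is a single clone, is not given in the sources used here. Sequencing was paired-end and strand-specific, on total RNA without rRNA.

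In a sarcomere, thick filaments of myosin slide along thin filaments of actin. Troponin C binds calcium, and through troponin I and troponin T this moves tropomyosin aside so that myosin can reach actin. Myosin-binding protein C, encoded by MYBPC1 (slow skeletal), MYBPC2 (fast skeletal) and MYBPC3 (cardiac), lies along the thick filament and tunes this contact, while titin, encoded by TTN, spans the sarcomere from the Z-disc to the M-band. RNAs of these proteins are made at high levels in muscle fibres, and the genes are best known as targets of myogenic transcription factors such as MYOD1 and of the MEF2 family.

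Between 7433414 and 23249221 read pairs were counted on genes in each library, with the deepest library in the GFP group and the shallowest in the RBFOX1 group. Levels are given below as raw counts and as the count scaled to a common library size after TMM normalization (CPM). In CPM, 3 counts were worth 0.131 to 0.392 depending on the library, and a group with 3 counts or fewer in every library was treated as being at the floor. RBFOX1 itself had 4, 0 and 1 counts in GFP cells and 10276, 16467 and 21451 counts in RBFOX1 cells. Of the glial and glioblastoma markers, VIM and CD44 were abundant in every library, while GFAP had 4 counts or fewer in each and AQP4 had none in any. Of 9 such markers 7 were tested, with 2 (SOX2 and NES) higher and 4 (OLIG2, SOX9, VIM and CD44) lower in RBFOX1 cells. SOX2 went from a mean of 1.69 to 9.49 CPM and NES from 250.9 to 379.9 CPM. The summed level of the 9 ran from 5585 to 5668 CPM in GFP and 3676 to 3727 CPM in RBFOX1 libraries. Most of this sum was VIM, with means of 4294 and 2731 CPM, so it does not describe the markers as a set. Of the 20536 genes that entered the edgeR fit, 46.7% differed between the conditions at an adjusted p under 0.05, with 23.7% higher and 22.9% lower in RBFOX1 cells. The 3 RBFOX1 libraries all lay above the GFP libraries in 26.9% of them and all lay below in 26.5%. Any count of genes below is to be read beside these shares.

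MYBPC2 (ENSG00000086967) lies on the plus strand of chromosome 19 of GRCh38 from 50432892 to 50466321. It had 1, 1 and 0 counts in the GFP replicates and 45, 67 and 82 counts in the RBFOX1 replicates. The RBFOX1 libraries, although they held fewer reads in all, stood far above every GFP library and close to each other. In CPM, MYBPC2 stood at 0.0426 ± 0.0421 (SD, n = 3) in GFP cells and 5.55 ± 0.291 (SD, n = 3) in RBFOX1 cells. The ratio of the summed counts per library size was 131, with an exact 95% counting interval of 35.9 to 1090, which covers counting error only. The fitted log2 fold change was 6.76 (standard error 0.374), and it rests on 2 counts in GFP cells. Of the 20536 genes, 1172 had at most 3 counts in every GFP library, and 6 of these, MYBPC2 included, had at least as many counts in RBFOX1 cells as MYBPC2. In these bulk libraries, a larger share of cells with the RNA and more RNA per cell cannot be told apart.

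Of the other myosin-binding protein C genes, MYBPC1 did not follow it, and MYBPC3 was too low to tell. MYBPC1, the slow skeletal form, had 7, 3 and 6 counts in GFP cells and 0, 1 and 1 in RBFOX1 cells. It was thus low everywhere, with the RBFOX1 libraries below the GFP libraries, and the summed counts were 5.9 times as high in GFP cells (counting interval 1.39 to 52.9). MYBPC3, the cardiac form, was at 0 in all GFP libraries and had 0, 2 and 2 counts in RBFOX1 cells. Both groups were at the floor, so no fold is given. In no window of 100 bases did the canonical MYBPC2 transcript (GENCODE release 44) match an annotated transcript of another gene at 97 or more bases. Other MYBPC2 transcripts, introns and unannotated sequence were not searched, so an exchange of reads is not excluded.

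Among the thin-filament members, TNNC1, which encodes the troponin C of slow skeletal and cardiac muscle, came closest to MYBPC2. It had 3, 5 and 1 counts in GFP cells and 64, 115 and 139 counts in RBFOX1 cells. Every RBFOX1 library was above every GFP library by more than the spread within either group, with means of 0.209 ± 0.185 and 8.90 ± 0.467 CPM (SD, n = 3 each). The fitted log2 fold change was 5.51 (standard error 0.276), and it was 6.22 when GFP replicate 2, which held 5 of the 9 GFP counts, was left out.

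TNNI1 encodes the troponin I of slow skeletal muscle. It had 1, 0 and 1 counts in GFP cells and 5, 3 and 3 counts in RBFOX1 cells, a ratio of 7.46 with a counting interval of 1.63 to 69.2. All RBFOX1 libraries were above the GFP libraries, but at levels where a few reads decide the ratio. Part of its transcript, 2.42%, matched other genes at 97 or more of 100 bases, so single reads may be uncertain.

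TNNT1, which encodes the troponin T of slow skeletal muscle, was abundant in A172 cells under both constructs. It had 5664, 2576 and 2929 counts in GFP cells and 1446, 2497 and 3096 counts in RBFOX1 cells. The raw counts overlap because the libraries differ in depth, whereas in CPM each RBFOX1 library was below each GFP library, at 197.5 ± 7.62 against 229 ± 16.5 (SD, n = 3 each). The log2 fold change was -0.21 (standard error 0.0553), and -0.14 without GFP replicate 1. The 3 troponin members therefore stood at different levels and did not move together: the calcium-binding subunit went from near the floor to 64 or more counts, the inhibitory subunit stayed within a few counts, and the tropomyosin-binding subunit was already made and stood slightly lower.

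ACTC1 and ACTA1 encode the cardiac and skeletal alpha-actins, the building blocks of the sarcomeric thin filament. ACTC1 had 2, 0 and 0 counts in GFP cells and 3, 2 and 3 counts in RBFOX1 cells. ACTA1 had 3, 1 and 1 counts in GFP cells and 0, 1 and 1 counts in RBFOX1 cells. Neither actin rose above 3 counts in any library, and no fold is given for either. Each matched another gene at no more than 96 of 100 bases, that of ACTA1 being ACTB, the cytoplasmic beta-actin.

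MYH3 encodes the embryonic myosin heavy chain, the motor of the thick filament in developing and regenerating muscle. It had 30, 10 and 14 counts in GFP cells and 39, 79 and 89 counts in RBFOX1 cells. In CPM the groups were apart, at 1.07 ± 0.236 and 5.76 ± 0.617 (SD, n = 3 each), with a log2 fold change of 2.37 ± 0.201 (SE). Over 13.6% of the MYH3 transcript, another gene matched at 97 or more of 100 bases. MYH1 matched at all 100 in its best window, and other genes may have matched equally well there. MYH1, MYH4 and MYH8 had at most 1 count in any library. MYH2 had 3, 1 and 4 counts in GFP cells and 9, 6 and 6 in RBFOX1 cells.

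TTN had 4, 2 and 0 counts in GFP cells and none in RBFOX1 cells. Its GFP mean was below what 3 counts are worth in the RBFOX1 libraries, so no fold is given. On the opposite strand lies TTN-AS1, an antisense RNA that was well measured, with 961, 479 and 562 counts in GFP cells and 236, 305 and 440 in RBFOX1 cells. TTN-AS1 was lower in RBFOX1 cells, with a log2 fold change of -0.58 ± 0.0799 (SE) and an edgeR adjusted p of 4.34e-06. The libraries were stranded and were counted on the reverse strand, so reads were assigned by strand. The share of reads on the wrong strand was not measured, and whether the few TTN counts came from TTN-AS1 was not tested.

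**Figure D1:**
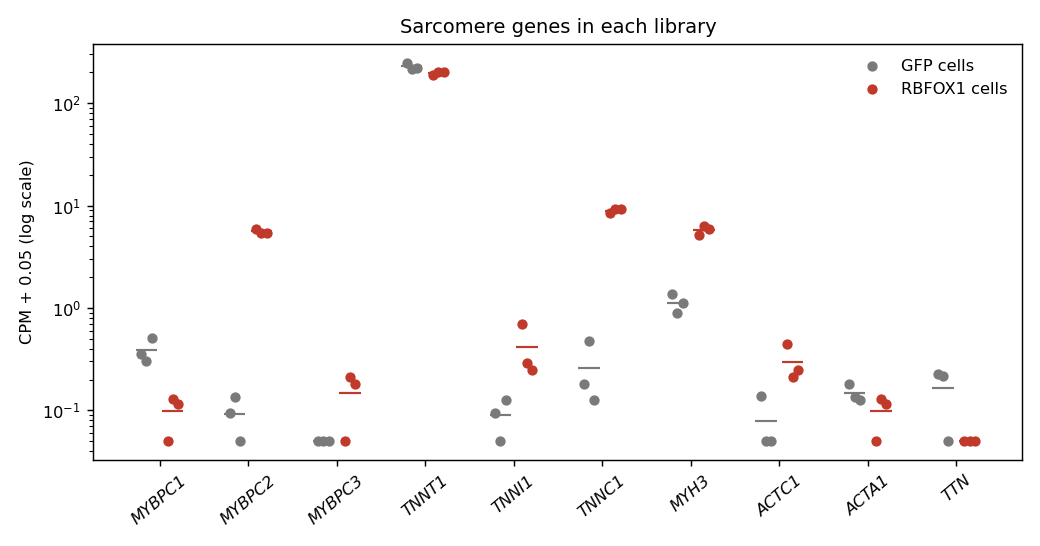
Levels of the 10 sarcomere genes in each library, as CPM plus 0.05 on a log axis, with GFP cells in grey, RBFOX1 cells in red, 1 point per library and a bar at the mean of each group. MYBPC2, TNNC1 and MYH3 stand apart between the groups, TNNT1 is near 200 CPM in both, and the remaining 6 genes stay under 1 CPM in every library.

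Of the 10 genes, 7 had the 10 counts over all libraries needed to enter the fit, and MYBPC3, ACTA1 and TTN did not. Among the 7, MYBPC2, TNNI1, TNNC1 and MYH3 were past the threshold as higher and MYBPC1 and TNNT1 as lower, beside 23.7% and 22.9% of all genes. That is 6 of 7 in either direction, beside 46.7%. MYBPC1 missed the threshold without GFP replicate 3 or without RBFOX1 replicate 3, TNNI1 missed it without GFP replicate 1, and both missed it with DESeq2. TNNI1 did not meet the minimum without RBFOX1 replicate 1, neither gene met it with filterByExpr, and ACTC1, which missed the threshold here, passed it with limma-voom. MYBPC2, TNNI1, TNNC1 and ACTC1 each had fewer than 10 counts over the GFP libraries and reached the minimum only with their RBFOX1 counts, as MYBPC1 did only with its GFP counts. Nothing is read from these counts, since the list was made with this comparison known.

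Compared per length, as CPM per kilobase of annotated exon, TNNT1 stood first in both groups, at 108 ± 7.81 in GFP cells and 93.2 ± 3.59 in RBFOX1 cells (SD, n = 3 each). In GFP cells it was followed by TNNC1 (0.183 ± 0.162) and MYH3 (0.16 ± 0.0352), which overlapped each other. MYBPC2 came sixth in GFP cells, at 0.0115 ± 0.0113, and overlapped ACTC1 below it. In RBFOX1 cells the order below TNNT1 was TNNC1 (7.8 ± 0.41), MYBPC2 (1.49 ± 0.0785) and MYH3 (0.861 ± 0.0924). Each of these was apart from the next, whereas ACTC1, TNNI1, MYBPC3, ACTA1 and MYBPC1 each overlapped the gene below in the order.

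RBFOX1 binds the RNA hexamer written TGCATG in DNA letters, and the canonical transcripts of the 10 genes were searched for it on the sense strand. MYBPC2 had none in its transcript of 3604 bases, of which 116 are 3' UTR. Of all 14050 3' UTRs of tested protein-coding genes, 36.5% held at least 1 site, but among the 405 with a length near that of MYBPC2 only 1.98% did. Of the 10 members, TNNI1 alone had a site in its 3' UTR. It had 2 in 5469 bases, a length at which 79% of 3' UTRs hold a site. TNNC1 and MYH3 each had 1 site in the coding sequence, and the share of coding sequences with a site was not taken over all genes. The windows below show these 4 sites, read from GENCODE release 44 transcripts on GRCh38, 5′ to 3′ along the RNA, with the hexamer in capitals and 12 bases on each side.
TNNI1, 3' UTR, 127 bases past the stop codon, minus strand of chr1:201409121-201409126: ttccctccagccTGCATGccctcctctgga
TNNI1, 3' UTR, 4636 bases past the stop codon, minus strand of chr1:201404612-201404617: gatctaaaagcaTGCATGcctttgttttat
TNNC1, coding sequence, minus strand of chr3:52451806-52451811: atgatggttcggTGCATGaaggacgacagc
MYH3, coding sequence, minus strand of chr17:10642685-10642690: ctggaagaggagTGCATGttccccaaggca

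A match to the hexamer is a description of sequence and not evidence of binding. Introns were not searched, nor was any motif other than this exact hexamer, so a transcript without it may hold another form. TNNT1, MYBPC1, MYBPC3, ACTC1 and ACTA1 held no TGCATG anywhere in the canonical transcript, and TTN held 11, all in its coding sequence of a transcript of 109224 bases.

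Whether the rise of MYBPC2 extended along the chromosome was examined in the genes whose bodies lie within 100 kb. Of 16 such genes in the count files, 9 were tested, and 1 was higher, 3 were lower and 5 did not pass the threshold. POLD1, a DNA polymerase subunit gene that ends 14874 bp upstream on the same strand, rose from 22.7 ± 1.34 to 36.1 ± 2.81 CPM (SD, n = 3 each). Its log2 fold change was 0.66 ± 0.0795 (SE), with an edgeR adjusted p of 8.67e-07. JOSD2 fell by 0.80 (adjusted p = 3.3e-08), LRRC4B by 0.30 (adjusted p = 0.0036) and NR1H2 by 0.21 (adjusted p = 0.00273) on the log2 scale. SPIB, a transcription factor gene of lymphoid cells, ends 1578 bp upstream of MYBPC2 on the same strand and had 1, 1 and 0 counts in GFP cells and 1, 2 and 4 in RBFOX1 cells, which is under the minimum for the fit. The gene annotated across POLD1 and SPIB (ENSG00000142539) had no count in any library. On the other side, GARIN5A, which ends on the opposite strand 464 bp past MYBPC2, had 13, 5 and 3 counts in GFP cells and 6, 6 and 11 in RBFOX1 cells. EMC10, a subunit gene of a membrane protein insertion complex, stood at 0.060 ± 0.0638 (SE) on that scale and did not pass. None of the tested neighbours came near the value of MYBPC2.

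**Figure D2:**
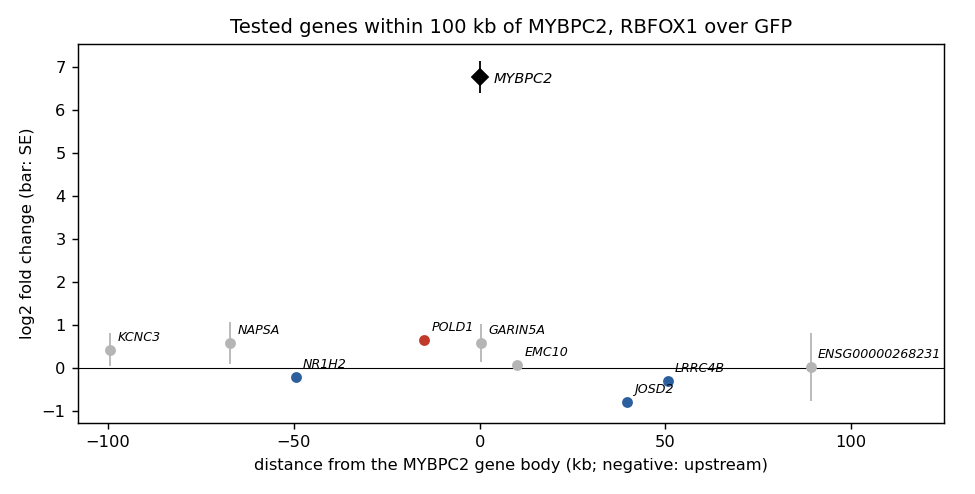
Fitted log2 fold change of RBFOX1 over GFP, with its standard error as a bar, against the distance in kb from the MYBPC2 gene body for the 9 tested genes within 100 kb. MYBPC2 (black diamond) stands at 6.76, and the neighbours lie between -0.80 and 0.66, with red and blue for genes that passed the test as higher or lower and grey for the others.

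The other striated-muscle genes were taken from 5 hand-written lists, chosen with earlier results of these data known. The lists held 115 genes, of which 114 were found by symbol. Of these, 67 were tested and 22 had no count in any library. By the same test, 31 of the 67 (46.3%) were higher and 12 (17.9%) lower in RBFOX1 cells, beside 23.7% and 22.9% of all genes tested. Of the 67, 15 had fewer than 10 counts over the GFP libraries and so reached the minimum only with their RBFOX1 counts. Of these 15, 13 were among the 31 higher genes. The share of 46.3% and the median of all 67 thus include genes that entered the fit through the group where they are high. Of the 12 lower genes, 1 reached the minimum only with its GFP counts. The median log2 fold change of the 67 genes was 0.48, against 0.0050 for all genes tested. For the 53 with at least 30 counts over the libraries it was 0.40, against -0.0080 for the 16976 genes of all kinds with as many. This cut also sums both groups, and genes such as TNNT2, with 0 GFP and 69 RBFOX1 counts, pass it through their RBFOX1 counts. Since the lists were chosen with earlier results of these data known, these shares and medians describe them and are no test. 

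In the thick filament and M-band list, 6 of 16 tested genes were higher and 3 lower. Of the 6, 4 reached the minimum for the fit only with their RBFOX1 counts. MYBPH, a small relative of the myosin-binding protein C genes, had 9, 8 and 3 counts in GFP cells and 51, 83 and 81 in RBFOX1 cells, and its log2 fold change was 3.84 (standard error 0.261, adjusted p = 1.9e-10). Its close relative MYBPHL had 1, 0 and 0 counts against 4, 4 and 5. MYL1, the fast skeletal essential light chain, went from no count to 5, 6 and 6 counts, at least 2.5-fold higher against a floor of 3 counts per library, and MYH7, the slow and cardiac myosin heavy chain, from 0, 0 and 1 to 3, 4 and 4. MYOM2, an M-band protein gene with 138, 69 and 78 counts in GFP cells and 79, 134 and 177 in RBFOX1 cells, rose by 0.89 ± 0.116 (SE) on the log2 scale. Among the genes that fell, the myosin heavy chain genes MYH15 and MYH14 had log2 fold changes of -1.31 ± 0.12 and -1.19 ± 0.153 (SE). That of MYOM3, a relative of MYOM2, was -0.93 ± 0.0862 (SE), and all 3 had non-overlapping groups. MYH14 encodes a non-muscle myosin, so its place in this list and in the counts of lower genes is not that of a sarcomere gene. The counts of higher genes likewise include genes that are not confined to muscle, such as TPM1 below. OBSL1, which encodes a cytoskeletal linker protein, had a log2 fold change of 0.00 ± 0.0542 (SE) and did not pass the threshold.

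In the thin filament list, 5 of 11 tested genes were higher and 3 lower. Of the 5, 2 reached the minimum for the fit only with their RBFOX1 counts. TNNT2, which encodes the cardiac form of troponin T, had no count in any GFP library and 14, 23 and 32 counts in RBFOX1 cells. It was at least 9.45-fold higher, so that it and TNNT1 went in opposite directions. TMOD1, which caps the pointed ends of actin filaments, rose from 10.1 ± 1.98 to 113.6 ± 8.64 CPM (SD, n = 3 each), or by 3.53 ± 0.1 (SE) on the log2 scale. TPM1, a tropomyosin gene also used in non-muscle cells, rose from 263.4 ± 8.21 to 1034 ± 20.4 CPM (SD, n = 3 each), or by 1.97 ± 0.0484 (SE) on the log2 scale. XIRP2, an actin-binding protein gene of striated muscle, fell by 1.64 (standard error 0.283) on the log2 scale while its relative XIRP1 went from no count to 4, 5 and 9. TNNI3 and TNNC2, the cardiac troponin I and fast troponin C genes, stayed at 10 counts or fewer in each library and did not pass the threshold. The remaining fast troponin genes TNNI2 and TNNT3 had at most 2 counts in a library.

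In the Z-disc list, 6 of 14 tested genes were higher and 3 lower. Of the 6, 2 reached the minimum for the fit only with their RBFOX1 counts. CRYAB, a small heat shock protein gene that is abundant in muscle but also in glia, had 4, 3 and 0 counts in GFP cells and 41, 53 and 56 in RBFOX1 cells (log2 fold change 4.80, standard error 0.379). LDB3, a Z-disc scaffold gene and a known splicing target of RBFOX proteins, had 7, 6 and 8 counts against 10, 21 and 43. The log2 fold change of LDB3 was 2.20 (standard error 0.365), and its RBFOX1 libraries were unlike each other at 1.94 ± 0.793 CPM (SD, n = 3). DES, the muscle intermediate filament gene, rose by 0.89 ± 0.102 (SE) on the log2 scale. FHL1 and FHL2, LIM domain protein genes, fell by 0.95 (standard error 0.112) and 0.88 (standard error 0.0656). ACTN2, the sarcomeric alpha-actinin that defines the Z-disc, had 1 count in each RBFOX1 library and none in GFP cells, and MYOT had none at all.

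In the list of calcium handling, energy and membrane genes, 11 of 17 tested genes were higher and 1 lower. Of the 11, 5 reached the minimum for the fit only with their RBFOX1 counts, PYGM, SGCA, TRIM63 and CASQ1 among them. Higher genes with more counts included DMD (log2 fold change 2.11 ± 0.0692, SE) and FBXO32 (1.79 ± 0.0712, SE). The lower gene was TRDN, the triadin gene of the calcium release complex. It had 31, 13 and 10 counts in GFP cells and 3, 7 and 7 in RBFOX1 cells. Its call was lost without GFP replicate 1 or RBFOX1 replicate 3. PYGM, the muscle glycogen phosphorylase gene, had 6, 1 and 0 counts in GFP cells and 28, 39 and 43 in RBFOX1 cells, with a log2 fold change of 4.35 ± 0.407 (SE), or 5.97 without GFP replicate 1. SGCA, a member of the dystrophin complex in muscle, had 1 count in each GFP library and 8, 26 and 34 in RBFOX1 cells, a ratio of 30.7 with a counting interval of 10.1 to 153. TRIM63, a ubiquitin ligase gene of muscle atrophy, had 0, 1 and 0 counts against 4, 21 and 20, a ratio of 61 with a counting interval of 10.4 to 2460. Its fitted log2 fold change of 5.41 rests on that 1 GFP count and was 7.18 without GFP replicate 2 and 4.67 without GFP replicate 1. CASQ1, the calcium buffer of fast muscle reticulum, had 2, 0 and 3 counts against 7, 14 and 15, with a log2 fold change of 3.18 ± 0.554 (SE), or 3.95 without GFP replicate 3. The creatine kinase gene CKM, among the most abundant muscle RNAs, had 1 count in 1 RBFOX1 library.

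In the list of muscle transcription factors and fusion genes, 3 of 9 tested genes were higher and 2 lower. The myogenic factors MYOD1, MYF5 and MYF6 had no count in any of the 6 libraries, nor did PAX3, PAX7 or MYOCD, the cofactor of smooth and cardiac muscle genes. MYOG, the myogenic factor of differentiation, had 2, 0 and 0 counts in GFP cells and 2 in each RBFOX1 library. With no count in a library, up to 3 counts cannot be told from absence, which is 0.131 to 0.392 CPM here. Of the MEF2 genes, MEF2A rose by 0.18 (standard error 0.0589, adjusted p = 0.0174) on the log2 scale, a call lost without RBFOX1 replicate 2 (adjusted p = 0.0547). MEF2C and MEF2D had log2 fold changes of 0.24 ± 0.196 and -0.10 ± 0.0838 (SE) and did not pass the threshold. SIX4 rose by 0.57 (standard error 0.0732) and NKX2-5, a heart factor gene, by 0.48 (standard error 0.111), whereas GATA4, which encodes another heart factor, fell by 0.41 (standard error 0.0876). HAND2, with 7, 4 and 4 counts in GFP cells and 1, 0 and 1 in RBFOX1 cells, was also lower (edgeR adjusted p = 0.0286), and the list had 1 rather than 2 lower genes without RBFOX1 replicate 2 or 3.

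**Figure D3:**
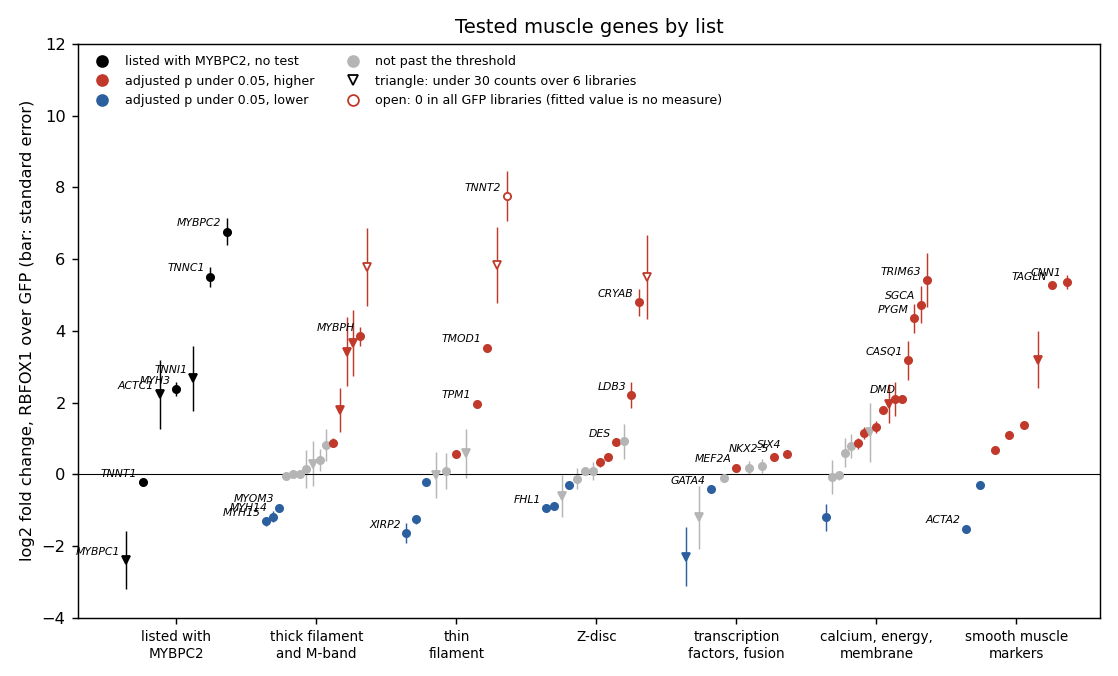
Fitted log2 fold change of RBFOX1 over GFP, with its standard error as a bar, for every tested gene of each muscle list, sorted within the list. MYBPC2 (6.76) and TNNC1 (5.51) stand at the top of the genes listed with them (black, no test), while the thick filament, thin filament and Z-disc lists hold genes on both sides of 0. Red and blue mark genes that passed the test as higher or lower, triangles mark genes with under 30 counts, and open symbols mark genes at 0 in every GFP library, whose fitted value depends on the prior count.

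As markers of another muscle cell type, 10 smooth muscle contractile genes were followed, of which 8 were tested. Of these, 6 were higher and 2 lower, or 1 lower without RBFOX1 replicate 2. TAGLN, the transgelin gene, rose from 5.22 ± 0.554 to 204.1 ± 7.36 CPM (SD, n = 3 each), or by 5.27 ± 0.0773 (SE) on the log2 scale, and CNN1, the calponin gene, from 13, 3 and 5 counts to 146, 211 and 292. ACTA2, the smooth muscle alpha-actin gene, fell by 1.52 (standard error 0.0962), and MYH11, the smooth muscle myosin, had at most 2 counts in any library. The summed level of the 10 genes ran from 381.8 to 397.9 CPM in the GFP libraries and from 925.5 to 951.5 in the RBFOX1 libraries. Most of this difference came from TAGLN and from MYLK, which went from 263.0 ± 10.1 to 564.9 ± 12.7 CPM (SD, n = 3 each). The part of other contractile or mesenchymal programmes in the level of MYBPC2 was not tested.

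The profile of MYBPC2 over the 6 libraries, as log2 CPM centred on each gene's mean, was compared with those of 14087 other tested protein-coding genes by the root mean square difference. Among the 5 most similar were FOXS1 (0.191), TAGLN (0.22) and FAT3 (0.238). FOXS1 encodes a forkhead transcription factor and had 5, 2 and 1 counts in GFP cells and 65, 87 and 112 in RBFOX1 cells. FAT3, an atypical cadherin gene, went from 21, 10 and 11 to 207, 301 and 386 counts. TNNC1, compared in the same way, had a difference of 0.269, MYH3 of 1.37 and TNNT1 of 2.59. The groups carry most of each profile, so likeness here mainly says that the step between GFP and RBFOX1 cells was similar on this scale. The scale has a prior count of 2, which shrinks the step of genes with few counts, such as MYBPC2. The fitted log2 fold changes were further apart, at 6.76 for MYBPC2, 5.42 for FOXS1, 5.27 for TAGLN and 4.84 for FAT3.

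**Figure D4:**
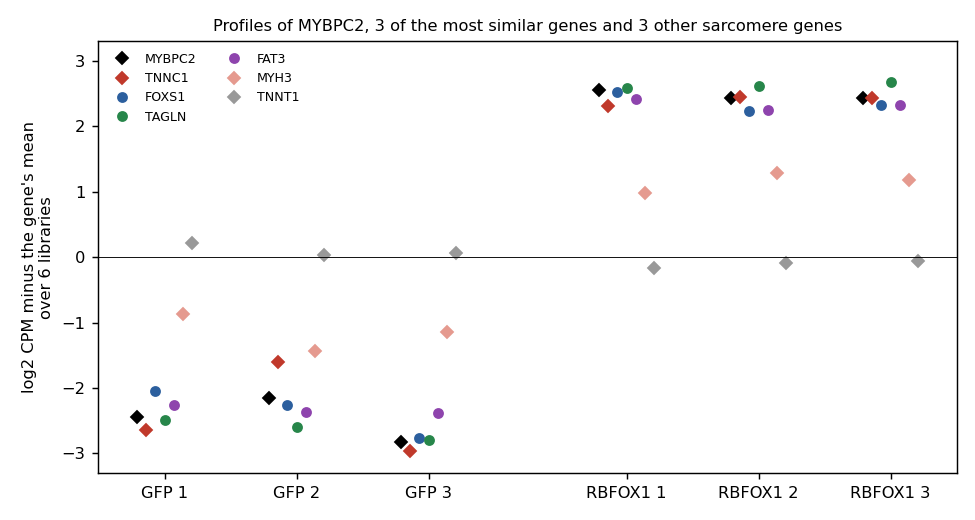
Log2 CPM of each gene minus its mean over the 6 libraries, computed with a prior count of 2, with 1 point per gene and library. On this scale MYBPC2 and TNNC1 sit with FOXS1, TAGLN and FAT3 at about the same step between GFP and RBFOX1 libraries. MYH3 shows a smaller step and TNNT1 almost none. The prior count shrinks the step of genes with few counts, and the fitted log2 fold changes are further apart.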

How the data were processed

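RNA was sequenced from 6 A172 libraries, 3 with the GFP and 3 with the RBFOX1 construct. The authors aligned reads to GRCh38 with HISAT2 and deposited the raw count of each Ensembl gene (release 87) from HTSeq-count in intersection-strict mode, without normalization. Of all read pairs, 38.1 to 48.0% were not counted on a gene and stayed out of library sizes. A deposited table of the authors' DESeq2 comparison (mean, log2 fold change, error, statistic, p and adjusted p) was not used.

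A gene entered the fit with a total of 10 counts or more. Library sizes were scaled by TMM, and edgeR (4.0.16, in R 4.3.3) compared the 2 conditions, without a covariate, by its two-sided quasi-likelihood test. The p-values of all 20536 genes were adjusted together after Benjamini and Hochberg. The standard error is the fitted log2 fold change divided by the square root of the F statistic. Ratios of summed counts carry exact 95% intervals. Symbols, exon lengths and transcripts came from GENCODE release 44 on GRCh38. MYLPF was not analysed, and some genes that the naming rule or the lists cover are not reported here. For transcript copies, blastn 2.17.0 was used. DESeq2 1.42.0, limma-voom (limma 3.58.1), other scalings and filters, a replicate block and the omission of each library were alternatives.

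The members and lists were chosen with earlier results of these data known. Named genes were the members, genes overlapping a member or within 100 kb of MYBPC2, in each muscle list up to 4 genes that passed the test with non-overlapping groups and 30 counts or more, taken by the size of the fold, and the 5 genes most like MYBPC2. Other genes named in a list, and the markers, were chosen after their values were seen.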

Additional observations from a re-analysis of the deposited data

How the results depend on the processing

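Single-gene alternatives were run for the members, the genes named by rule in the muscle lists, the tested genes within 100 kb of MYBPC2, TTN-AS1 and the genes most like MYBPC2. Of these, the fitted direction changed for ENSG00000268231, a neighbour that did not pass the threshold at 0.018, which was -0.0060 with upper quartile scaling, -0.030 with DESeq2, -0.075 with the replicate block and from -0.866 to 0.573 with each library left out. The log2 fold change of MYBPC2 was 6.76 with edgeR and 6.35 with limma-voom, and from 6.37 to 7.23 with each library left out in turn. Its size rests on 2 counts in GFP cells. The number of striated-muscle genes called higher was 31, and 27 to 31 with each library left out, 28 with DESeq2 and 23 with filterByExpr, which tests fewer low genes. The number called lower was 12, and 10 to 12 with each library left out. With filterByExpr, 2 rather than 6 genes of the thick filament and M-band list were higher. Genes called lower went from 2 to 1 among the transcription factors and from 1 to 0 in the calcium, energy and membrane list with either DESeq2 or filterByExpr, and the former also with the replicate block. The GFP mean of TTN was 0.414 times the floor of 3 counts and 1.24 times a floor of 1 count per library. Replicate numbers are shared between the groups in the labels, but same-numbered libraries did not deviate together (correlations of -0.0326, 0.0156 and -0.00055). With the replicate block, 4588 genes were higher and 4458 lower, against 4869 and 4712 without it, and 30 striated-muscle genes were higher and 11 lower. Genes with a few counts per library, which include 6 of the 10 members, could not be measured precisely at this depth.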
